A study of Homo sapiens with 7 samples.

Results

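The 10 genes ILKAP, TRAM2, TOP3B, DRG2, RUNX1, PXN, JADE1, NPC1, ATL3 and DNMBP were followed intron by intron. Each holds an intron whose splice index in nascent RNA was lower in cells without CFAP20, which is read below as less splicing. The genes were listed by name with the splice values of these libraries known, and all of their introns in the deposited splice table were taken, 38 of 6709 introns and 10 of 2979 genes. An index in all 6 WT and CFAP20-KO libraries was present for 37 of the 38, the exception being TOP3B intron 2, which lacks CFAP20-KO replicate 2. All 6 values were present for 6537 introns over all genes.

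RPE1 cells, a human line immortalised from the retinal pigment epithelium, were used, and every group carried the background that the labels write as iCas9 p53/puro-dKO. The groups were WT (3 libraries), CFAP20-KO (3 libraries) and a rescue, CFAP20-KO + CFAP20-GFP (1 library). All cells were pulsed with bromouridine for 30 min, so that the sequenced RNA was newly made. The labels do not say whether the CFAP20-KO line is 1 clone or whether replicates were separate cultures. SDs and standard errors therefore cover library-to-library spread only, and that spread may be technical. The column names give each library 1 of 3 numbers, and libraries that share a number are called a run here. WT replicate 1 shared its number with CFAP20-KO replicate 1, and WT replicate 2 with the rescue. WT replicate 3 shared its number with CFAP20-KO replicates 2 and 3. The within-run differences of CFAP20-KO replicates 2 and 3 thus subtract the same WT library and are not independent. WT replicate 2 enters no within-run difference of CFAP20-KO. The labels do not say what the number stands for.

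CFAP20 is best known as a protein of the ciliary axoneme. In splicing, the spliceosome recognises a donor site at the start of an intron, nearly always GT in the DNA, and an acceptor site at its end, nearly always AG after a stretch rich in pyrimidines, and joins the exons on either side. Much of this happens while RNA polymerase II is still transcribing the gene, so newly made RNA holds spliced and unspliced molecules side by side. The splice index used here runs from 0 to 1 per intron and library, and the sources used here do not define it. Its orientation was read from the signal itself, over 431 introns of 243 genes with both measures. All were at least 1000 bp long and lay in deposited windows around replication origins. The index fell as intron signal rose relative to exon signal, with a Spearman rho across introns between -0.45 and -0.33 in the 6 WT and CFAP20-KO libraries. These introns share libraries and genes and are no replicates. A lower index is therefore read as less splicing, also for introns shorter than 1000 bp, where this was not checked. The check compares different introns within a library and does not cover a change of index in 1 intron. Over 422 introns, the change in index and the change in intron signal relative to the other introns of the gene had a rho of only -0.09. The number of reads behind an index is unknown.

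Library medians over all introns were 0.530, 0.691 and 0.642 in WT, 0.508, 0.703 and 0.676 in CFAP20-KO and 0.723 in the rescue, so the 2 libraries of the first run were the lowest and the rescue the highest. CFAP20 itself and most of the retinal pigment epithelium markers were not analysed here. Of 7 such markers, 1 was measured, RLBP1, at a signal of 0.0166 to 0.362 per library, against 21.9 to 60.2 for the proliferation gene MKI67. Of 6 markers of other cells, 3 were measured: ELF3 at 0.0527 to 0.525, and the neuronal genes MAP2 at 0.342 to 1.71 and SYT1 at 0.969 to 3.99.

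In each gene, the lead intron is the one with the most negative difference between group means among the introns that were lower in every CFAP20-KO library than in the WT library of its run. All 38 introns matched an annotated intron of GENCODE 44 on hg38 base for base. The lead introns of DRG2, NPC1 and DNMBP are not introns of the canonical transcript. Each is annotated in 1 transcript only, lies inside a canonical intron and shares its acceptor. There the index belongs to an alternative donor, and what it says of splicing of the canonical intron was not tested. The ends of 4 lead introns are shown because they span the range of the set: the largest fall (TOP3B), the longest intron (RUNX1), the weakest acceptor (JADE1) and the strongest site at both ends (ATL3). Each donor line gives 10 exon bases and 20 intron bases with the GT of the intron in capitals. Each acceptor line gives 30 intron bases and 5 exon bases with the AG of the intron in capitals. All are read 5′ to 3′ on the transcribed strand of hg38.
TOP3B intron 8 donor, chr22:21965376-21967602, minus strand: ggaagcccagGTgtgcctgctccacccaca
TOP3B intron 8 acceptor: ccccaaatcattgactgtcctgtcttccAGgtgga
ATL3 intron 3 donor, chr11:63652576-63658760, minus strand: tgggaagaagGTaaggatgaaaatgacctt
ATL3 intron 3 acceptor: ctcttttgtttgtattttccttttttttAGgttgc
RUNX1 intron 4 donor, chr21:34859579-34880556, minus strand: agtggaagagGTacgttatctgtcaaaact
RUNX1 intron 4 acceptor: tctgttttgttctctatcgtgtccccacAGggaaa
JADE1 intron 6 donor, chr4:128852269-128855629, plus strand: tgtgcaccagGTatgtggggcagggaggcc
JADE1 intron 6 acceptor: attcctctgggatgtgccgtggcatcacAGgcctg

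Splice-site strength was scored as the summed log2 ratio of base frequencies, taken from all introns of the table, to an even base composition, over 9 bases at the donor and 23 at the acceptor. A higher score is closer to the usual site. The 10 lead introns had a median donor score of 8.75 against 8.38 over all introns, and a median acceptor score of 10.3 against 9.69. All 10 began with GT and ended with AG, as did 98.5% of the table. ATL3 intron 3 had strong sites at both ends, with a donor score of 11.4 and an acceptor score of 14.6, percentiles 93.6 and 94.4 of the introns in the table. JADE1 intron 6 had the weakest acceptor of the set, at 3.23, and pyrimidines made up 45% of the 20 bases scored before its AG, percentile 1.16. The NPC1 donor scored 4.87, percentile 11.4. In the other 8 lead introns no site scored below the ILKAP acceptor, which had 7.34 and percentile 24.8.

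The lead introns were longer than most. Their median length was 4083.5 bp, against 1446.5 bp for the other 28 introns of the same genes and 707 bp over the table. Of the 10, 9 were at least 1 kb long, compared with 19 of the other 28 and 40.9% of all introns. PXN intron 9, at 607 bp, was the exception. Their GC content, with a median of 43.9%, was below the 49.6% of the table. Across the table, the share of introns lower in all 3 within-run differences was 13.1% below 1 kb, 24.6% from 1 to 5 kb and 31.4% from 5 kb, with median differences of 0.0058, -0.00865 and -0.0298. The lead introns were chosen by their fall, so their length is a description with no test.

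**Figure D1:**
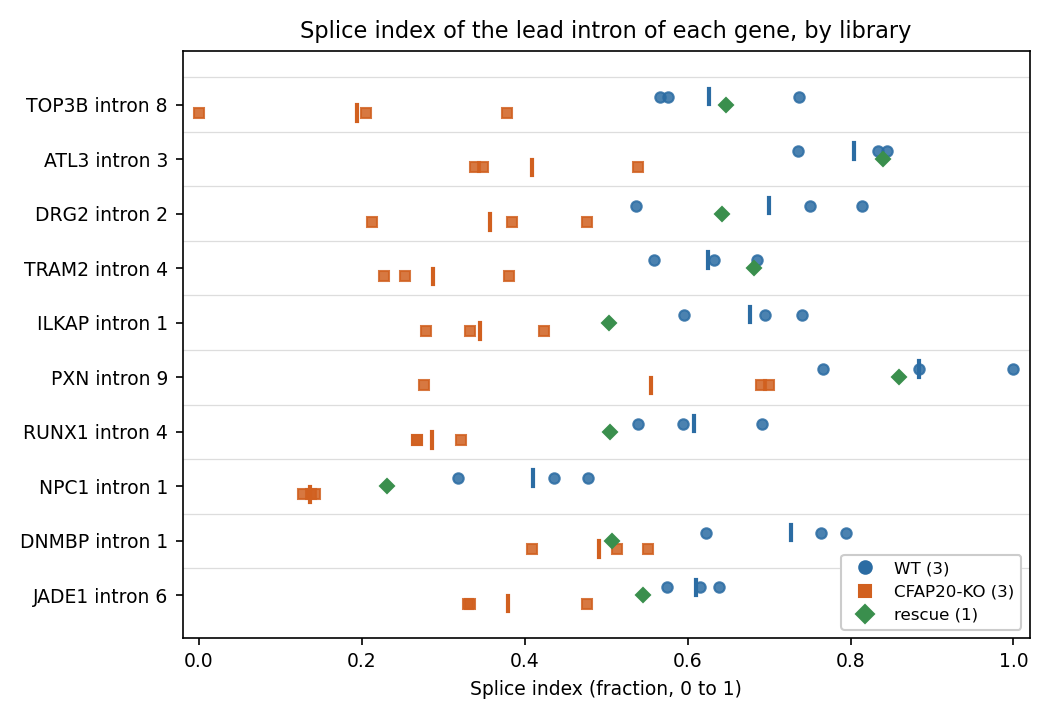
Splice index (x axis, fraction from 0 to 1) of the 10 lead introns (y axis) in each WT library (circles), CFAP20-KO library (squares) and the rescue library (diamonds), with vertical ticks at the group means of 3 libraries. In all 10 introns the 3 squares lie to the left of the 3 circles, and the diamond lies among the squares only for DNMBP intron 1.

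In all 10 lead introns the 3 CFAP20-KO values lay below the 3 WT values, as the choice of the genes had required of the same-run differences. Of all introns, 5.14% had groups separated in this direction. The median difference was -0.330, whereas the median over all introns was 0. The lead introns ranked between first and 62nd in size of fall among 6537, and 7 of them were among the first 9. These values chose the genes, so they are given with the limma standard error of each difference as a measure of spread and without a test. The smallest fall among them was that of JADE1, -0.230. Introns that were lower in all 3 pairs and fell at least as far, but were no lead introns, numbered 50 over all genes, and 1 of them was ATL3 intron 2 (-0.260).

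PXN, ILKAP and DNMBP act at adhesions and in signalling to the cytoskeleton. PXN encodes paxillin, an adaptor of focal adhesions. Its lead intron is intron 9 of ENST00000228307, which is intron 12 of 14 in the canonical transcript (chr12:120214218-120214824, minus strand). The index was 0.767, 0.884 and 1.0 in WT replicates 1 to 3 and 0.276, 0.700 and 0.690 in CFAP20-KO replicates 1 to 3. CFAP20-KO replicate 1 was far below the other 2, and the highest CFAP20-KO value was only 0.067 under the lowest WT value. The difference was -0.328 (SE 0.129), and it shrank to -0.189 without CFAP20-KO replicate 1. The other 2 measured PXN introns were not close by and moved in different ways. Intron 4 was higher in all 3 CFAP20-KO libraries than in the WT library of the run, by 0.167, 0.159 and 0.076, while the intron 1 of ENST00000440827, within the first canonical intron, differed by -0.074, -0.018 and -0.028.

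ILKAP encodes a serine/threonine phosphatase that binds integrin-linked kinase. Its intron 1 of 11 (chr2:238194871-238203498, minus strand, 8628 bp) was the only ILKAP intron of the table. The index was 0.596, 0.695 and 0.741 in WT and 0.424, 0.279 and 0.333 in CFAP20-KO. The groups did not overlap, the differences within runs were -0.172, -0.462 and -0.407 for CFAP20-KO replicates 1 to 3, and the difference of means was -0.332 (SE 0.0793). With 1 measured intron, nothing can be said of its neighbours.

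DNMBP encodes Tuba, a scaffold that activates the small GTPase CDC42 and binds dynamin and actin regulators. With 10 introns it was the most densely measured of the genes. Its lead intron begins at the alternative first exon of ENST00000543621, inside intron 4 of the 16 canonical introns, and shares the acceptor of that intron (chr10:99909147-99913952, minus strand). The index was 0.763, 0.622 and 0.794 in WT and 0.551, 0.514 and 0.409 in CFAP20-KO, a difference of -0.235 (SE 0.0801). The groups did not overlap. Introns 2, 3, 5, 6, 10 and 16 of the canonical transcript were also lower in all 3 pairs, with differences of means from -0.176 (intron 3) to -0.055 (intron 2). Intron 5, which follows the lead intron after 1 exon, stood at 0.655, 0.761 and 0.662 in WT and 0.512, 0.610 and 0.534 in CFAP20-KO, again without overlap. Introns 1, 13 and 14 did not follow. Intron 1, the longest of the set at 37703 bp, differed by -0.428 in CFAP20-KO replicate 1 and by 0.051 and 0.018 in the other 2. In all, 7 of the 10 DNMBP introns were lower in all 3 pairs.

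TRAM2, ATL3 and NPC1 encode proteins of internal membranes. TRAM2 encodes a membrane protein of the translocon of the endoplasmic reticulum. Its intron 4 of 10 had an index of 0.558, 0.686 and 0.632 in WT and 0.381, 0.228 and 0.253 in CFAP20-KO. All CFAP20-KO values were at least 0.177 below the WT values, and the difference was -0.338 (SE 0.0789). The intron before it, intron 3, lies 117 bp away across a single exon and fell with it, from 0.828, 0.871 and 0.818 to 0.711, 0.568 and 0.634 (difference -0.201, SE 0.0590), also without overlap. Introns 7 to 10 did not. Introns 8 and 10 were higher in all 3 same-run pairs, by 0.082 to 0.129 and by 0.033 to 0.214, although their differences of means, -0.00837 and -0.000612, were near 0. WT replicate 2, whose run holds no CFAP20-KO library, was the highest WT library in both (0.697 and 0.894). Of the 6 measured TRAM2 introns, these 2 adjoining ones were lower in all 3 pairs.

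ATL3 encodes an atlastin, a GTPase that fuses and shapes tubules of the endoplasmic reticulum. Its intron 3 of 12 had an index of 0.833, 0.735 and 0.845 in WT and 0.349, 0.338 and 0.539 in CFAP20-KO. The groups were 0.196 apart at their nearest values and the difference was -0.395 (SE 0.0833), the third largest fall of the table. All 4 measured ATL3 introns were lower in all 3 pairs. Intron 2, a 133-bp intron separated from intron 3 by 1 exon of 144 bp, went from 0.683, 0.821 and 0.745 to 0.489, 0.393 and 0.587 (difference -0.260, SE 0.0800), without overlap. Upstream, the 2 introns of ENST00000535789, both within the first canonical intron, differed by -0.150 and -0.070. The second of these ends at the acceptor of canonical intron 1, and its groups did not overlap, whereas those of the first did. The size of the difference grew from intron to intron along the measured stretch.

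NPC1 encodes the lysosomal membrane protein that exports cholesterol. The single NPC1 intron of the table is intron 1 of ENST00000587223, a transcript without a defined coding sequence. It lies within canonical intron 1 of 24 and shares its acceptor. Its index was low in WT, at 0.477, 0.318 and 0.435, and 0.143, 0.137 and 0.128 in CFAP20-KO. The CFAP20-KO libraries were close to each other, the groups did not overlap, and the difference was -0.274 (SE 0.0627).

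TOP3B, RUNX1 and JADE1 act on nucleic acids and chromatin. TOP3B encodes a topoisomerase that acts on DNA and RNA. Its intron 8 of 17 had an index of 0.576, 0.737 and 0.566 in WT and 0, 0.378 and 0.205 in CFAP20-KO. The difference, -0.432 (SE 0.113), was the largest fall of the table. It was -0.335 at its smallest when 1 library was left out. The value of 0 in CFAP20-KO replicate 1 was shared by 523 of 6709 introns in that library, the most of any library, and the depth behind it is unknown. Intron 2, some distance upstream, was also lower where measured, at 0.370 and 0.636 in CFAP20-KO replicates 1 and 3 against 0.593, 0.736 and 0.712 in WT, with the groups overlapping.

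RUNX1 encodes a DNA-binding transcription factor of blood and epithelial cells. Its lead intron, intron 4 of ENST00000300305 and intron 5 of the 8 canonical introns, is 20978 bp long, longer than 99.3% of the introns of the table. The index was 0.691, 0.540 and 0.594 in WT and 0.321, 0.267 and 0.268 in CFAP20-KO. The 3 within-run differences were close to each other (-0.369, -0.326 and -0.325), the groups were 0.218 apart at their nearest values, the widest gap of the 10, and the difference of means was -0.322 (SE 0.0739). The preceding intron, intron 3 of the same transcript, was lower in every pair by less (differences -0.083, -0.046 and -0.039), and its groups, 0.231, 0.549 and 0.408 against 0.148, 0.362 and 0.369, overlapped.

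JADE1 encodes a scaffold of histone acetyltransferase complexes that carry the enzyme HBO1. Its intron 6 of 10 had an index of 0.615, 0.575 and 0.639 in WT and 0.333, 0.476 and 0.330 in CFAP20-KO, without overlap, and a difference of -0.230 (SE 0.0761), the smallest of the set. Intron 5, on its upstream side, was lower in all 3 pairs (differences -0.017, -0.103 and -0.180), with overlap. Intron 7, on its downstream side, differed by 0.048 in CFAP20-KO replicate 1 and by -0.175 and -0.170 in the others. Without CFAP20-KO replicate 1 intron 7 fell further than intron 6 (-0.241 against -0.207). Among the genes with more than 1 intron indexed in all 6 libraries, only JADE1 had a lead intron that changed when a library was left out. Intron 8 was lower in all 3 pairs, and introns 3 and 4 were not.

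DRG2 encodes a member of the developmentally regulated GTP-binding proteins, a family of GTPases. Its lead intron is intron 2 of ENST00000582419, a transcript annotated as a target of nonsense-mediated decay, the pathway that removes transcripts with early stop codons (chr17:18092075-18093812, plus strand). It lies within canonical intron 1 of 12 and shares its acceptor. The index was 0.537, 0.750 and 0.814 in WT and 0.212, 0.385 and 0.476 in CFAP20-KO. The nearest values of the groups were 0.061 apart, but the within-run differences were alike, at -0.325, -0.430 and -0.338, and the difference of means was -0.343 (SE 0.109). Introns 6 and 9, further along the gene, moved in both directions, intron 6 from -0.242 to 0.184.

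Counted over the genes, 24 of the 37 introns were lower in all 3 pairs, against 18.3% over the table, and 3 were higher in all 3, against 27.1%. The lead introns are part of this count by choice. Of the other 27, 14 were lower in all 3 pairs, with a median difference of -0.0935 over the 27. In 8 of the 27 all CFAP20-KO values lay below all WT values, against 5.14% of all introns. These shares of the table are not matched for length, and 19 of the 28 other introns were at least 1 kb long. Over the table, 24.6% of introns of 1 to 5 kb and 31.4% of those from 5 kb were lower in all 3 pairs. Only 5 of the lead introns had a measured intron directly across an exon, in 6 pairs, and 5 of these 6 neighbours were lower in all 3 pairs (TRAM2 intron 3, RUNX1 intron 3, JADE1 intron 5, ATL3 intron 2 and DNMBP intron 5), with a median difference of -0.141. Introns elsewhere that fell at least as far in all 3 pairs, including those of the 10 genes that were not lead introns, had 23 such neighbours, of which 73.9% were lower. Next to any intron lower in all 3 pairs it was 384 of 873 neighbours, and over all introns 18.5%. Neighbours that fell too were thus also common beside other introns that fell this far.

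**Figure D2:**
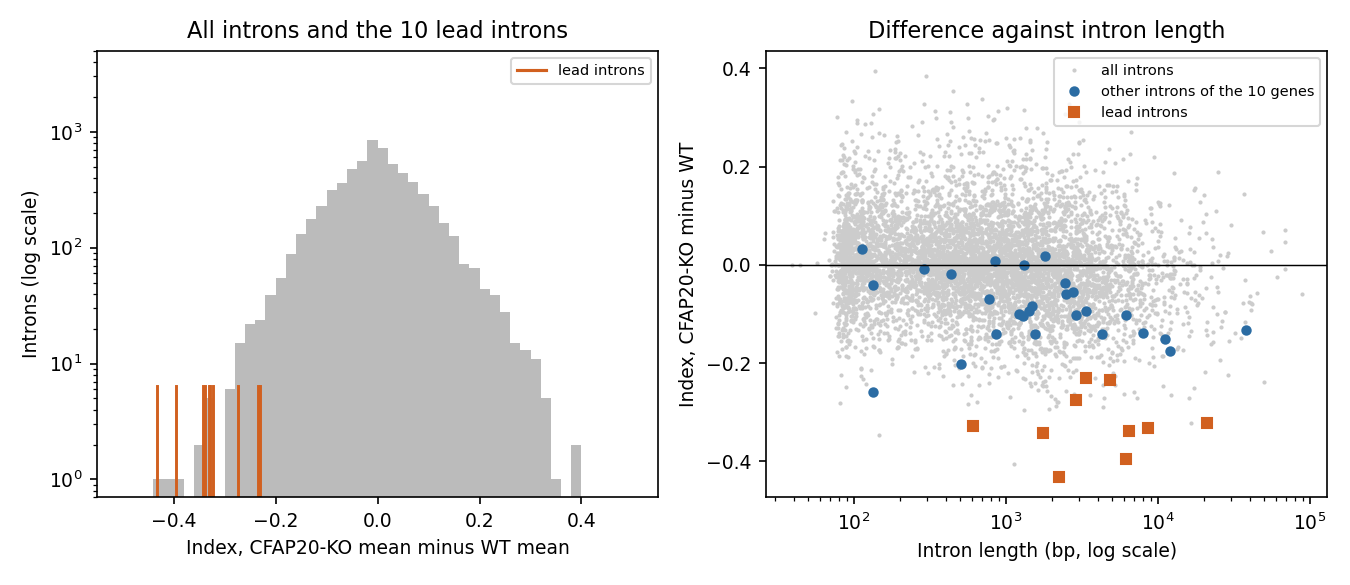
Left, the number of introns (y axis, log scale) by difference in splice index between the means of 3 CFAP20-KO and 3 WT libraries (x axis), for 6537 introns, with the 10 lead introns as lines in the left tail. Right, the same difference (y axis) against intron length in bp (x axis, log scale), with the lead introns as squares and the other introns of the 10 genes as circles. The squares lie between -0.432 and -0.230 and 9 of the 10 are at 1 kb or more.

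No intron of the table, and so none of these, passed limma with Benjamini-Hochberg adjustment at 0.05 over all 6537 introns (0%), and 373 had an unadjusted p below that value. The count was also 0 when libraries were centred on their medians, when the run was a covariate and when replicate numbers were blocks, each alone. With centring and the block together, 34 introns passed, 17 lower and 17 higher, and 8 of the 34 were lead introns. That block sets WT replicate 2 beside CFAP20-KO replicate 2, which are in different runs. Since the genes were listed for their fall in these libraries, this count describes where they lie in the table.

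In the rescue library the lead introns were mostly between the 2 groups or at the WT level. The index was 0.504 for ILKAP, 0.681 for TRAM2, 0.647 for TOP3B, 0.642 for DRG2, 0.505 for RUNX1, 0.860 for PXN, 0.545 for JADE1, 0.231 for NPC1, 0.840 for ATL3 and 0.507 for DNMBP. It was above all 3 CFAP20-KO values in 9 of the 10, DNMBP being the exception, against 45% of all introns. In 7 of 10 the WT mean was the nearer group mean, against 51.8%, and nearer to the CFAP20-KO mean for ILKAP, NPC1 and DNMBP. For ATL3, TRAM2 and TOP3B it exceeded the WT mean. Compared with WT replicate 2, the WT library of its run, it was lower in 9 of 10, against 38.7% of all introns, with a median difference of -0.0609. ATL3 was 0.105 above that library.

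Other falling introns had high rescue values too, and the lead introns were chosen for low CFAP20-KO values, which these counts use again. Among 49 introns of other genes that fell at least as far in all 3 pairs, the rescue was nearer to WT in 69.4% and above all CFAP20-KO values in 67.3%. The rescue also had the highest library median. After each library was centred on its median, 5 lead introns remained above all CFAP20-KO values, against 17.2% of all introns, and 5 were nearer to WT, against 51.6%. With 1 rescue library, in a run without a CFAP20-KO library, no test was possible and run and rescue cannot be told apart. Of the other 27 introns of the genes, 21 were nearer to WT in the rescue without centring. This was so for 51.8% of all introns and 77.5% of introns lower in all 3 pairs. The count includes introns whose group means hardly differed, such as TRAM2 intron 10 (WT mean 0.674, CFAP20-KO mean 0.673, rescue 0.907).

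Nascent signal along the gene was measured for ATL3 and for part of RUNX1. Only these 2 genes had a long enough stretch, on the transcribed strand, in the 2032 windows around replication origins used here. Whether the other genes lie in deposited windows that were not used was not tested, and their signal was not analysed. The unit is the coverage per 200-bp bin as scaled by the authors. ATL3 (chr11:63624087-63671376) was covered almost whole. Its mean signal was 11.8, 15.6 and 14.4 in WT and 16.0, 17.7 and 17.2 in CFAP20-KO, and the change was 0.29 on the log2(signal + pseudocount) scale (SE 0.28), against a median of 0.16 over the 2209 genes tested. For RUNX1 the first 97400 bp of the gene gave 4.24, 8.22 and 2.69 in WT and 3.82, 3.89 and 4.09 in CFAP20-KO, a change of -0.21 (SE 0.41). This stretch (chr21:34951901-35049301) holds neither RUNX1 intron with an index. Both lie further downstream, so the signal at the lead intron was not measured. The sign of the RUNX1 change rested on WT replicate 2, and the change became 0.21 without that library. Neither gene, and none of the 2209, passed limma at an adjusted p of 0.05 (0%), with 192 below 0.05 unadjusted. In such bulk libraries a change in the cells that make a transcript and a change in transcript per cell cannot be told apart.

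Within ATL3 the signal differed by intron. Intron 3 had a mean signal of 7.53, 6.55 and 8.71 in WT and 20.7, 17.9 and 15.1 in CFAP20-KO, so the lowest CFAP20-KO library was above the highest WT library. Canonical intron 1 went from 13.9 ± 1.91 to 20.7 ± 4.37 and introns 4 to 12 together from 10.2 ± 1.03 to 13.3 ± 1.60 (mean ± SD, n = 3 each), while bins on exons had 30.7 ± 17.9 and 21.9 ± 10.4. The exon bins stood at 16.0, 50.6 and 25.7 in WT replicates 1 to 3, and no CFAP20-KO library shares the run of replicate 2. Within runs they differed by -6.06, 1.37 and 3.02, so exon signal did not fall in every pair. The log2 ratio of intron 3 to all other intronic bins of the gene was -0.60, -0.65 and -0.56 in WT and 0.31, 0.17 and -0.03 in CFAP20-KO. The groups did not overlap, as in 4.74% of the 422 introns of at least 1 kb measured the same way, and the rise of 0.76 was eighth largest among them. The other ATL3 intron measured in this way, intron 2 of ENST00000535789, changed by 0.51, -0.01 and -0.07 within runs, so it was higher in CFAP20-KO replicate 1 only. This comes from the libraries that chose ATL3 and is a second measure of the same RNA, so it is described and not tested. Over the 422 introns the change in this ratio and the change in index had a Spearman rho of -0.09 (a description across introns of the same libraries).

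**Figure D3:**
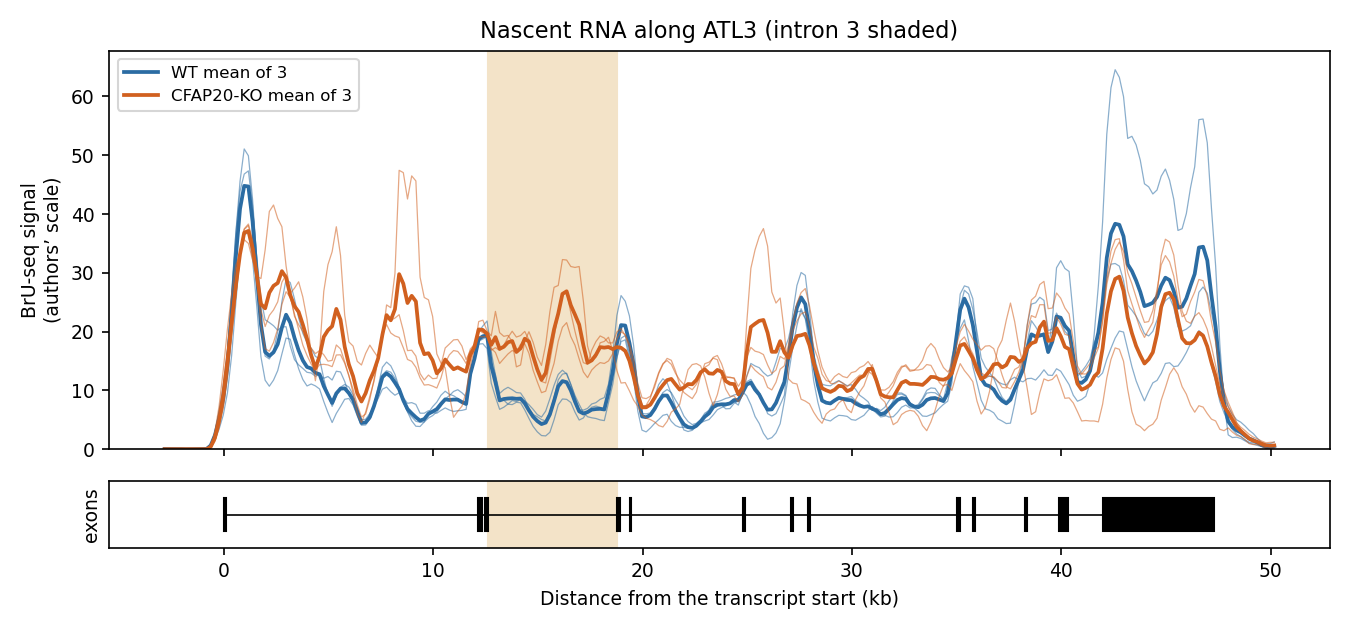
BrU-seq signal along ATL3 (y axis, authors’ scale, running mean over 5 bins of 200 bp) against distance from the transcript start in kb (x axis), for each library (thin lines) and the mean of 3 WT or 3 CFAP20-KO libraries (thick lines), with exons drawn as blocks and intron 3 shaded. In the shaded intron the 3 CFAP20-KO libraries average 17.9 against 7.60 in WT.

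Relatives of the genes were taken as lists by function, with earlier results of these data known. Introns of focal adhesion genes, the partners of paxillin, were more often higher: of 61 introns in 9 genes, 6 were lower and 30 higher in all 3 pairs, with a median difference of 0.0536. The shares over all introns were 18.3% lower and 27.1% higher. This median was 0.0137 without WT replicate 1, 0.0278 without CFAP20-KO replicate 2 and 0.0857 without CFAP20-KO replicate 1. In 8 of them all CFAP20-KO values lay above all WT values, against 5.92% of all introns. In TLN1, which encodes talin, intron 3 had 0.421, 0.745 and 0.813 in WT and 0.878, 0.947 and 0.946 in CFAP20-KO. VCL, encoding vinculin, had 0.745, 0.722 and 0.780 against 0.932, 0.971 and 0.910 in intron 7. The groups overlapped in neither. Genes that shape the endoplasmic reticulum or translocate proteins into it (10 introns in 4 genes) had a median of -0.0495 with 4 lower and 0 higher in all 3 pairs, where 18.3% and 27.1% of all introns were. The median was -0.0148 without CFAP20-KO replicate 1 and -0.0188 without WT replicate 1. RTN4 intron 2 went from 0.944, 0.928 and 0.965 to 0.750, 0.855 and 0.893.

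Lysosome and cholesterol genes (30 introns in 8 genes) had a median of -0.0508, with 8 lower and 3 higher in all 3 pairs, against 18.3% and 27.1% of all introns. The median was -0.0164 without CFAP20-KO replicate 1, -0.0192 without WT replicate 2 and -0.0785 without WT replicate 1. Partners of JADE1 and RUNX1 (10 introns in 5 genes) had a median of -0.0464, with 4 lower and 0 higher. It was -0.00774 without CFAP20-KO replicate 1, -0.0205 without WT replicate 2 and -0.023 without CFAP20-KO replicate 2. Topoisomerases and their partners (7 introns in 2 genes) had a median of -0.058 and GTPase factors (8 introns in 2 genes) one of -0.00395, and each turned positive without CFAP20-KO replicate 1 and without 1 WT library (replicate 2 and replicate 3, respectively). DRG1 is the closest relative of DRG2. Its intron 2 had 0.604, 0.639 and 0.622 in WT and 0.821, 0.799 and 0.819 in CFAP20-KO, an increase of 0.191. This intron was not matched by position to the DRG2 lead intron, which fell. TOP2A intron 18 differed by -0.246 in CFAP20-KO replicate 1 and by -0.0226 and -0.0191 in the others. None of these introns passed limma over all introns.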

How the data were processed

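BrU-seq was compared in 3 WT, 3 CFAP20-KO and 1 rescue library of RPE1 cells, labelled for 30 min with 2 mM bromouridine and sequenced as paired 151-bp reads, per the labels' protocols. Per the submitters' processing notes the tools included Trim Galore 0.6.5, STAR 2.7.7a and HOMER 4.8.2 on hg38, and the sources used here give no parameters. In the deposited splice table each intron has an index, a fraction between 0 and 1, whose formula and depth are not stated. The authors' score columns, differences of index within a run, matched a recalculation to 3.8e-08. The deposited origin windows hold signal (coverage) per 200-bp bin, scaled by the authors to a reference that is not given. Neither is a count, so no count model or counting interval was used.

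The genes and lists were chosen with earlier results of these data known, and the comparison sets of introns that fell as far were added after seeing the data. Named were all 10 genes and, from each list, the introns passing limma or else at most 2 with the largest difference among those whose groups do not overlap. A gene named by this rule, and some sequences, are not reported here. limma 3.58.1 (R 4.3.3, trend and robust) was fitted over 6537 introns, and over 2209 genes on log2(signal + 0.0709), and was tested on simulated data. Splice sites were read from hg38 and introns matched to GENCODE 44. Libraries with the same replicate number, which is not the run, were checked as pairs. For the index their deviations correlated at 0.508, 0.207 and 0.214, all above the limit of 0.1 for treating replicate numbers as pairs. Libraries with different replicate numbers reached as much (WT replicate 2 with CFAP20-KO replicate 3, 0.219). For gene signal the values were 0.829, 0.574 and 0.0528, and the last missed that limit. WT replicate 3 and CFAP20-KO replicate 2, which share a run, correlated at 0.25 for the index and 0.106 for gene signal. Alternatives were library centring, a logit scale, filters, other pseudocounts, the replicate block, the run as covariate, averaging CFAP20-KO replicates 2 and 3 (the most alike pair, r = 0.966 across introns), and leaving out each library.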

Additional observations from a re-analysis of the deposited data

How the results depend on the processing

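The fall of the 10 lead introns kept its direction under all 13 alternatives each, with differences from -0.526 to -0.189. The groups of these introns did not overlap and all their within-run differences were negative. Leaving out or averaging libraries, the logit scale and the run covariate therefore could not reverse the direction. The replicate block and the index filter returned the main difference unchanged. The lead intron of a gene changed in none of the alternatives tried on it but 1, JADE1 without CFAP20-KO replicate 1. In ILKAP, NPC1 and TOP3B it could not change, since only 1 intron held all 6 values. The median over lead introns ran from -0.372 to -0.293 and that over all introns of the genes from -0.145 to -0.113 when 1 library was left out. The count of 24 introns lower in all 3 pairs became 15 when each fall had to reach 0.05, where 7.31% of all introns met it, and ranged from 24 to 30 without 1 library. Without WT replicate 3 it was 30, but 52.0% of all introns then qualified, since 1 pair was left. Among the other introns, 14 became 8 when groups had to be separate, where 5.14% of all introns met it. Rescue values above all CFAP20-KO libraries fell from 9 to 5 lead introns after centring.

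Leaving out 1 library gave 0 introns passing limma each time, and the replicate block alone gave 0. The replicate block with centred libraries gave 34. For gene signal, the replicate block called 209 genes and the run covariate 243, against 0, and neither called ATL3 or RUNX1. The RUNX1 change of -0.21 became 0.25 with the run covariate and 0.21 without WT replicate 2, and ranged from -0.58 to 0.21 when leaving out 1 library, while ATL3 ranged from 0.18 to 0.38. The topoisomerase median became 0.0257 without CFAP20-KO replicate 1 and 0.00942 without WT replicate 2, from a lowest value of -0.102. The GTPase median became 0.0748 without CFAP20-KO replicate 1 and 0.0368 without WT replicate 3, from a lowest of -0.0161. The cause of these shifts was not tested. The other 109 alternative values of the main results kept their direction and their side of the threshold, counts staying within 1.5 times. Index depth is unknown, so values at 0 or 1 cannot be weighed.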
